A study of Mus musculus with 4 samples.

Results

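The 10 genes described here belong to TGF-beta signalling: the ligand Tgfb1, the receptors Tgfbr1 and Tgfbr2, the signal carriers Smad2, Smad3 and Smad4, the inhibitory Smad7, and the nuclear repressors Ski, Skil and Tgif1. They were chosen by name, and each matched 1 row of the 23700 rows in the deposited expression tables. Helper T cells from spleens of C57BL/6 mice aged 43 weeks were sequenced in 4 libraries, 2 labelled wild type (WT 1 and WT 2) and 2 labelled RIPK1-KO (KO 1 and KO 2), where the kinase RIPK1 is deleted in T cells only. All 4 titles also carry the word Ctrl, which the labels do not explain, and the sources used here do not give the Cre driver, the deleted exons or the number of mice behind each library. The values are FPKM, fragment counts divided by transcript length and by the size of the library, and can be compared between genes because length is divided out.

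TGF-beta is secreted in a latent form and, once released, binds the type II receptor TGFBR2, which recruits and activates the type I receptor TGFBR1. TGFBR1 phosphorylates SMAD2 and SMAD3, which join SMAD4 and enter the nucleus to regulate genes. SMAD7 blocks the receptor and is itself a target of the pathway, while SKI, SKIL (SnoN) and TGIF1 hold SMAD target genes back. In T cells the pathway is known for restraining activation and for its part in regulatory and Th17 cell differentiation.

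The targeted gene did not go down. Its transcript, Ripk1, gave 5.61 and 5.60 FPKM in the wild-type pair, compared with 10.4 and 9.54 FPKM in KO 1 and KO 2, so every direction given here refers to a label that this gene went against; a value for a whole gene does not check the deletion of some exons. Depth read from the steps of the lowest values was about 17600000 to 22100000 fragments per library. At that depth the 10 genes rested on about 366 fragments (Tgfbr1 in WT 1) to 7125 fragments (Tgfbr2 in KO 2), and counting error alone came to 5.23% at the low end. The helper T cell markers (8 genes found) summed to 967 and 1248 FPKM in wild-type libraries, compared with 1580 and 1486 FPKM in those labelled KO. For 8 B cell markers the sums were far lower, at 5.15 and 5.59 FPKM against 9.96 and 9.69 FPKM. The 6 CD8 and NK markers went the other way, at 17.1 and 16.8 FPKM against 14.5 and 15.3 FPKM. Markers of erythroid cells were also higher under the KO label, at 10.7 and 147 FPKM in wild-type libraries, compared with 562 and 451 FPKM in those labelled KO. The part of these lists in the results below was not tested. In bulk RNA, a change in the share of a cell type and a change in RNA per cell cannot be told apart.

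In the libraries labelled KO, 3 of the 10 genes rose and none fell: Smad3 (2.52-fold), Ski (1.97-fold) and Tgfb1 (1.95-fold), as ratios of mean FPKM (limma, adjusted p under 0.05 over the 11074 rows tested). The share of all tested rows called higher was 25.6%, and 26.6% were called in either direction, so 3 of 10 lay near the background. Both KO libraries lay above both WT libraries for 8 of the 10 genes, against 58.5% of all tested rows; Smad7 and Tgif1 were the exceptions. The median tested row itself was 0.38 higher on the log2(FPKM + 1) scale used for all log2 changes here, and the median of the 10 genes was 0.60 higher. Once the libraries were scaled to a common trimmed mean, 0 of the 10 genes passed (limma; 3 at an unadjusted p under 0.05), against 4.68% of rows called higher and 9.88% in either direction. Quantile normalization (1.62% of rows higher, 2.31% in either direction) and division by library medians (4.48% higher, 11.7% in either direction) also left 0 of the 10 passing, each with 3 at an unadjusted p under 0.05. After trimmed-mean scaling, both KO libraries lay above both WT libraries for Tgfb1, Tgfbr1, Smad2, Smad3 and Ski, 5 of the 10 genes, against 31.9% of rows. All 10 genes passed the filter on low values, at least 1 FPKM in at least 2 libraries, in each of the 4 libraries. Nothing in the labels says that libraries with the same genotype are separate animals, so the p-values measure only how far these libraries spread, and that spread may be technical.

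**Figure D1:**
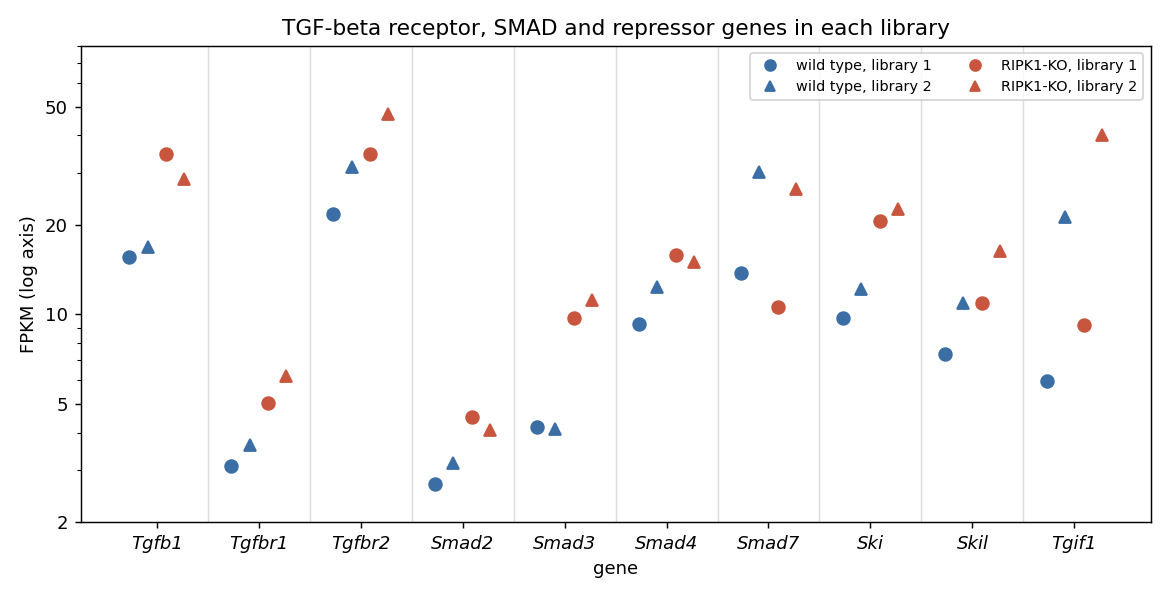
FPKM on a log axis for each of the 10 genes; circles are library 1 and triangles library 2 of a genotype, blue wild type and red RIPK1-KO, with no mean or error bar since each group holds 2 libraries. The red points lie above the blue ones for 8 genes, while for Smad7 and Tgif1 both triangles lie above both circles.

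Tgfb1, the ligand, measured 15.7 and 16.8 FPKM in WT 1 and WT 2, compared with 34.6 and 28.6 FPKM in KO 1 and KO 2. The groups did not overlap, and the gap between them was wider than the spread within either. The log2 change was 0.91 ± 0.20 (SE, n = 2 and 2; limma adjusted p = 0.0228), or 0.53 above the median row. The call was lost without WT 1 (log2 change 0.87), a fit that called almost no row at all, and without KO 1 (0.78). The log2 change fell to 0.45 after trimmed-mean scaling (limma adjusted p = 0.104). Platelets also carry this ligand. The 8 platelet markers summed to 1.21 to 1.78 FPKM per library; the highest, Pf4, gave 0.846 and 1.40 FPKM in WT 1 and WT 2 against 1.18 and 0.674 FPKM, Itga2b was at 0.279 to 0.482 FPKM and Ppbp was at 0 in all 4 libraries. Their part in the level of Tgfb1 was not tested.

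Tgfbr2, the receptor subunit that binds the ligand, had the highest mean of the 10 genes in both genotypes. It was at 21.9 and 31.4 FPKM in wild-type libraries, compared with 34.5 and 47.3 FPKM in those labelled KO, so that KO 1 lay only just above WT 2. The log2 change of 0.61 ± 0.26 did not pass (SE, n = 2 and 2; limma adjusted p = 0.129; 95% interval -0.02 to 1.24). Tgfbr1, the kinase subunit that signals to the SMADs, was far lower, at 3.09 and 3.63 FPKM against 5.06 and 6.19 FPKM. Its groups did not overlap, yet the log2 change of 0.60 ± 0.18 missed the threshold (SE, n = 2 and 2; limma adjusted p = 0.0535). The ratio of Tgfbr2 to Tgfbr1, which no scaling of a library can alter, was 7.06 and 8.64 in the wild type and 6.83 and 7.64 in the libraries labelled KO. The ratios of the genotypes therefore overlapped, and the balance of the subunits showed no separation by genotype.

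Smad3 had the largest change of the 10 genes. This receptor-activated SMAD, which binds DNA directly, measured 4.18 and 4.11 FPKM in WT 1 and WT 2, compared with 9.75 and 11.2 FPKM in KO 1 and KO 2. The wild-type libraries were nearly equal, and both KO libraries were more than 5 FPKM higher. The log2 change was 1.15 ± 0.17 (SE, n = 2 and 2; limma adjusted p = 0.0133), 0.77 above the median row and larger than that of 93.0% of tested rows. After trimmed-mean scaling the change was 0.73, just past the threshold on the side not called (limma adjusted p = 0.0514), and the groups still did not overlap, with 5.29 and 4.54 against 8.06 and 9.65 scaled FPKM. Leaving out WT 1 also ended the call, as for almost every called row, with the log2 change at 1.16.

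Smad2, the partner of Smad3 below the receptor, was the lowest of the 10 genes in every library, at 2.69 and 3.17 FPKM against 4.53 and 4.08 FPKM. Its log2 change of 0.43 ± 0.18 did not pass (SE, n = 2 and 2; limma adjusted p = 0.109) and lay 0.05 above the median row; after quantile normalization its sign turned (-0.03). Smad4, the shared partner of both, was at 9.32 and 12.4 FPKM against 15.8 and 15.1 FPKM. Its log2 change of 0.48 ± 0.20 did not pass either (SE, n = 2 and 2; limma adjusted p = 0.12). It was 0.04 after trimmed-mean scaling and -0.01 after division by library medians.

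Ratios within a library set Smad3 apart from these partners without any scaling. There were 1.55 and 1.30 Smad3 per Smad2 (ratio of FPKM) in the wild type and 2.15 and 2.73 in the libraries labelled KO. Against Smad4, Smad3 stood at 0.449 and 0.332 in the wild type and 0.617 and 0.740 in the libraries labelled KO. Both ratios were higher in each KO library than in either WT library. Smad2 against Smad4 was 0.289 and 0.256 in the wild type and 0.287 and 0.271 in the libraries labelled KO, with overlapping groups. No test of the ratios was run; an exact permutation test could give no two-sided p below 0.333 with groups of this size.

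Ski, a corepressor that binds SMAD complexes, measured 9.72 and 12.2 FPKM in WT 1 and WT 2, compared with 20.7 and 22.6 FPKM in KO 1 and KO 2. The groups were well apart. The log2 change was 0.93 ± 0.20 (SE, n = 2 and 2; limma adjusted p = 0.0218), or 0.55 above the median row, and 0.47 after trimmed-mean scaling (limma adjusted p = 0.0958). The call was also lost without WT 1 (log2 change 0.78), where almost no row was called, and without KO 2 (0.86). Its relative Skil, a corepressor of the same family whose gene is induced by the pathway, was at 7.36 and 10.9 FPKM against 10.96 and 16.3 FPKM. WT 2 and KO 1 were almost level, and the log2 change of 0.53 ± 0.27 did not pass (SE, n = 2 and 2; limma adjusted p = 0.173). The ratio of Ski to Skil was 1.32 and 1.12 in the wild type and 1.88 and 1.38 in the libraries labelled KO, higher in each KO library by a margin smaller than the spread between KO 1 and KO 2.

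**Figure D2:**
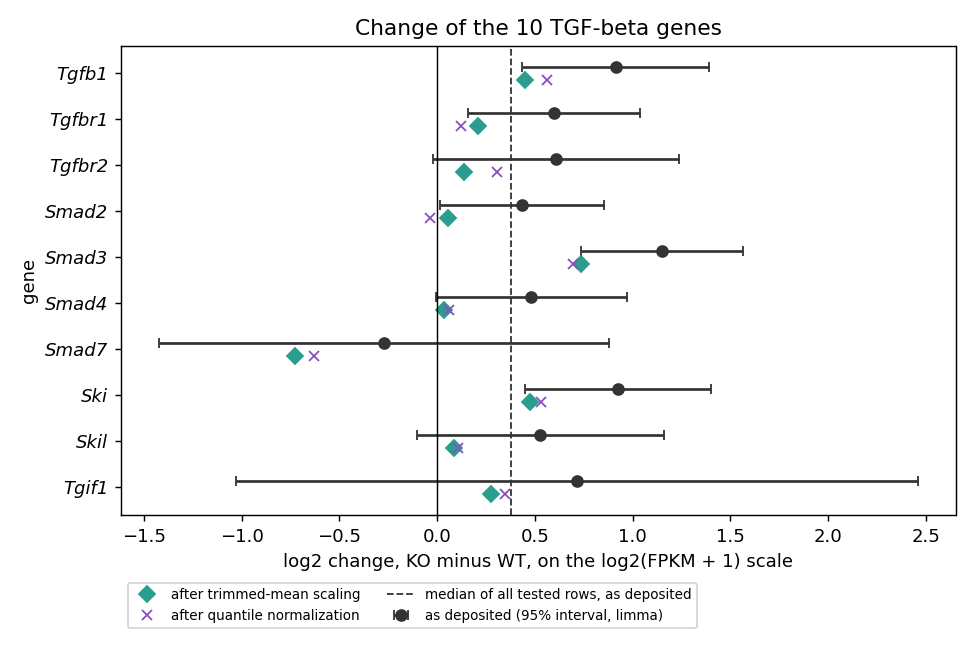
Log2 change (KO minus WT, log2(FPKM + 1) scale) of the 10 genes; black points are values as deposited with 95% limma intervals, diamonds are values after trimmed-mean scaling and crosses after quantile normalization, and the dashed line is the median of all tested rows as deposited (0.38). Smad3, Ski and Tgfb1 have intervals right of the dashed line, and the intervals of Smad7 and Tgif1 are the widest.

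For Smad7 and Tgif1 the libraries of 1 genotype differed more than the genotypes did; each was high in both libraries numbered 2 and low in both numbered 1. Smad7, the inhibitor of the receptor, measured 13.8 and 30.2 FPKM in WT 1 and WT 2, compared with 10.6 and 26.4 FPKM in KO 1 and KO 2. That is 2.19-fold more in WT 2 than in WT 1 and 2.50-fold more in KO 2 than in KO 1. Between genotypes the log2 change was -0.27 ± 0.48 (SE, n = 2 and 2; limma adjusted p = 0.689). The 95% interval ran from -1.42 to 0.88, so the spread between libraries left both directions within it.

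Tgif1, a homeodomain repressor of SMAD target genes, varied more than any other of the 10 genes. It measured 5.99 and 21.3 FPKM in WT 1 and WT 2, compared with 9.25 and 40.0 FPKM in KO 1 and KO 2, which is 3.56-fold more in WT 2 than in WT 1 and 4.33-fold more in KO 2 than in KO 1. The log2 change between genotypes was 0.72 ± 0.73 (SE, n = 2 and 2; limma adjusted p = 0.479) and turned to -0.29 without KO 2 and -0.12 without WT 1. Without KO 1 it was 1.72, with KO 2 as the only library labelled KO. Among all tested rows, the difference between library 2 and library 1 of Tgif1 lay at the 99.3 percentile in the wild type and the 99.7 percentile in the libraries labelled KO, and that of Smad7 at the 98.1 and 99.1 percentile. Only 85 of 11074 tested rows (0.768%) differed by at least 1 on the log2 scale in this direction in both genotypes, Smad7 and Tgif1 among them.

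The genes nearest to Tgif1 in their pattern over the 4 libraries were Csrnp1, Sik1, Apol8 and Irs2, at a root mean square distance of 0.112 to 0.196 between centred log2 values; Csrnp1 and Sik1 are known as genes induced quickly by stimulation. Csrnp1 was at 18.5 and 59.4 FPKM in wild-type libraries, compared with 27.7 and 94.1 FPKM in those labelled KO. A list of 20 immediate early and related fast-response genes, put together after this was seen and so no independent evidence, was higher in library 2 in both genotypes for all 20, against 30.1% of all tested rows. Nr4a1, a nuclear receptor gene induced by T cell receptor signals, measured 26.2 and 78.1 FPKM in WT 1 and WT 2, compared with 46.9 and 125 FPKM in KO 1 and KO 2. The myeloid markers S100a8 and S100a9 shared the pattern, S100a8 at 1.96 and 18.6 FPKM and at 7.18 and 23.6 FPKM. The whole list of 12 myeloid markers summed to 6.76 and 43.3 FPKM in wild-type libraries, compared with 23.4 and 55.0 FPKM in those labelled KO, while Cd14 was at 0 in 3 libraries. S100a8 and S100a9 made up most of each sum. Of the 4 tested markers of this list, 3 were higher in library 2 in both genotypes. Cd68 was lower there, at 1.04 and 0.952 FPKM in wild-type libraries and 2.25 and 1.55 FPKM in those labelled KO. The part of either list in the levels of Smad7 and Tgif1 was not tested.

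**Figure D3:**
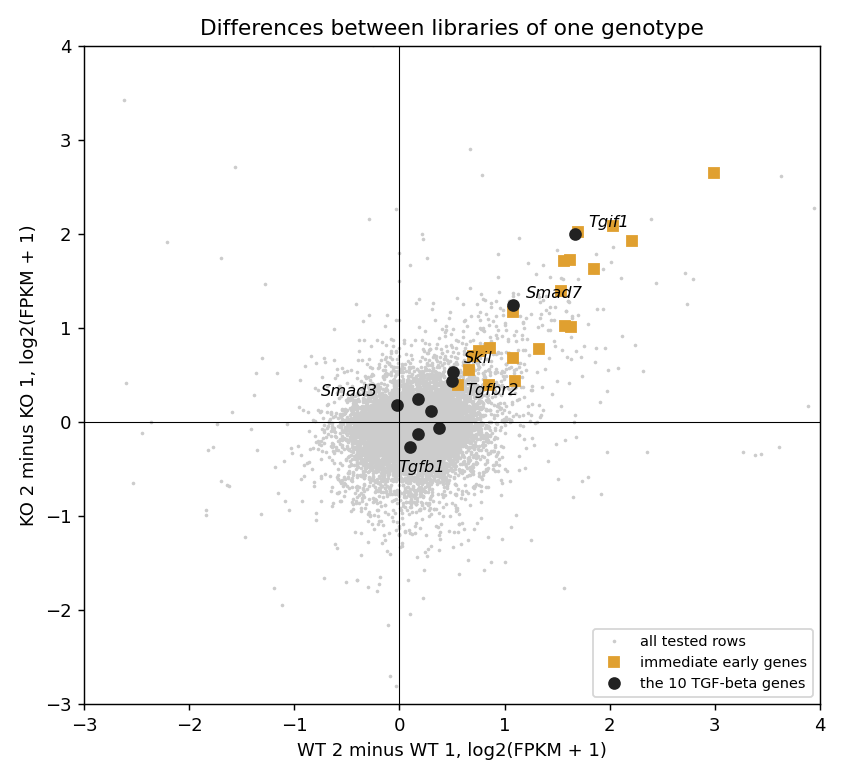
Difference between the libraries of 1 genotype on the log2(FPKM + 1) scale, wild type on the x axis and RIPK1-KO on the y axis; grey points are tested rows, orange squares the 20 immediate early genes and black circles the 10 TGF-beta genes. Tgif1 and Smad7 lie at the upper right among the orange squares and the other 8 genes nearer the centre; the axes run from -3 to 4, and 59 rows lie outside them.

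Next to Smad7, Dnajb4, Frat2, Dnajb9 and 5430416N02Rik had the most similar pattern (distance 0.0739 to 0.103). Dnajb4 and Dnajb9 encode co-chaperones of the HSP40 family. The nearest rows of Smad3 were Spnb2, Akap13, Eml4 and Pds5a (0.0180 to 0.0337), those of Ski were Bptf, Pan2, Erbb2ip and Rcsd1 (0.0108 to 0.0199), and those of Tgfb1 were Agbl5, Abcc4, Dck and Tab2 (0.0101 to 0.0136). With 4 libraries such likeness is common: 141 rows lay within 0.1 of Smad3, 459 of Ski and 479 of Tgfb1, but 3 of Smad7 and 0 of Tgif1. The choice to look up the neighbours of Smad7 and Tgif1 was made after their values were seen.

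The order of the mean levels in the wild type was Tgfbr2, Smad7, Tgfb1, Tgif1, Ski, Smad4, Skil, Smad3, Tgfbr1 and Smad2. From Tgfbr2 down to Skil the values of each gene overlapped with those of the next, so this order is loose. Smad3, Tgfbr1 and Smad2 formed the low end, at 4.15 ± 0.0540, 3.36 ± 0.381 and 2.93 ± 0.337 FPKM (mean ± SD, n = 2), with Tgfbr1 and Smad2 overlapping. In the libraries labelled KO the low end was Skil, Smad3, Tgfbr1 and Smad2, where Smad3 reached 10.5 ± 0.995 FPKM (SD, n = 2) and overlapped with Skil. Tgfbr1 and Smad2 no longer overlapped there. The ratio of Smad7 to its target at the membrane, Tgfbr1, was 4.45 and 8.32 in the wild type and 2.09 and 4.27 in the libraries labelled KO.

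The promoter windows of Smad3 and Tgfb1, both called higher, and of Tgif1, which was high in both libraries numbered 2, are shown because SMAD proteins bind a short DNA box. The letters come from RefSeq (GRCm38.p6, a later build than the mm8 named for the expression files), which gave windows for 6 of the 10 genes. Each run is the 250 bases before an annotated start, 5′ to 3′ on the gene's strand, with capitals marking a SMAD box (CAGAC or its reverse complement GTCTG) or a GC box (GGGCGG or CCGCCC), each searched on both strands. The SMAD and GC boxes share no letters in these windows.
Smad3, chr9:63757995-63758244, minus strand: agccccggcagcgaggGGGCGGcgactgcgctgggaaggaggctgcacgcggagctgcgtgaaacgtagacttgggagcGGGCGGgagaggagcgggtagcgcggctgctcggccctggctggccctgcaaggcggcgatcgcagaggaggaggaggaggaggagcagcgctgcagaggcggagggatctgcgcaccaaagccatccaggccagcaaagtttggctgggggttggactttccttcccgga
Tgfb1, chr7:25686752-25687001, plus strand: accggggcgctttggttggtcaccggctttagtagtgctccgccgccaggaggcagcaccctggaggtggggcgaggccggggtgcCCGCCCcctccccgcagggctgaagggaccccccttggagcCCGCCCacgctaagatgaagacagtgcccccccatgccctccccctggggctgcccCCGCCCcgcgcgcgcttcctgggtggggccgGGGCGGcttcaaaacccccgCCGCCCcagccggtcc
Tgif1, chr17:70851735-70851984, minus strand: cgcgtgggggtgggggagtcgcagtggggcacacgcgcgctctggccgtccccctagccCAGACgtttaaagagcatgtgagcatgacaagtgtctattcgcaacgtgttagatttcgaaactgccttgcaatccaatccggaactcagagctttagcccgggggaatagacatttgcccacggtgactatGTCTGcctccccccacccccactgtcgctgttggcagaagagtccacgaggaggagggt
The Smad3 and Tgfb1 windows held 0 SMAD boxes and 2 and 5 GC boxes, and that of Ski, also called higher, held 0 and 5. Tgif1 has 5 annotated starts in this table, and the window shown is the 1 of them that no exon of GENCODE vM21 touches. It held 2 SMAD boxes and no GC box, the most SMAD boxes of the 5; the other 4 windows held 1, 0, 1 and 0 SMAD boxes and 0, 5, 1 and 0 GC boxes. The files do not say which start was used in these cells, so no contrast between the genes is drawn from these counts. No annotated exon covers the Smad3 or Tgfb1 window. A SMAD box was present in 42.2% of all 32851 windows of this length and a GC box in 32.7%, so a match describes the letters and names no bound site.

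Among the other genes of the pathway, the first list held 21 further ligands of the family and genes that release or activate them. Of 11 tested, 6 rose as deposited (54.5%, against 25.6% of all rows): the ligands Bmp7 and Gdf11, and Lrrc32, Itgb8, Itgav and Furin, which act on latent or precursor forms. After trimmed-mean scaling 5 rose, the same genes without Gdf11 (against 4.68%), and after quantile normalization 1, Lrrc32 (against 1.62%). In each case 0 fell. Lrrc32, Itgb8 and Itgav passed the filter on low values only with libraries labelled KO, as given below. The scaled counts include them and so cannot be set cleanly against the shares of all rows. Lrrc32 (GARP), which tethers latent TGF-beta to the surface of regulatory T cells, was at 0.451 and 0.799 FPKM in wild-type libraries, compared with 3.48 and 3.64 FPKM in those labelled KO (limma adjusted p = 0.0127). Itgb8, the integrin chain that with Itgav releases the ligand, was at 0.0805 and 0.655 FPKM and at 2.88 and 5.14 FPKM (limma adjusted p = 0.0140). Both were under 1 FPKM in the wild type, so they entered the test only through the libraries labelled KO. Of the other 9 tested, 4 rose (44.4%). Itgav, 1 of these 4, was at 0.979 and 2.16 FPKM in wild-type libraries, so it too passed the filter only with libraries labelled KO. Furin, a protease that cleaves the precursor, was at 2.08 and 3.71 FPKM and at 8.84 and 8.98 FPKM, a 3.08-fold rise (limma adjusted p = 0.0149). Bmp7, a ligand of the related BMP branch, rose 3.32-fold (limma adjusted p = 0.0139). Itgb6 and Lrrc33, the most abundant of the list, gave log2 changes of 0.06 and 0.15 and did not pass (limma adjusted p = 0.845 and 0.517). The 14 regulatory T cell markers share Lrrc32 with this list and Itgae and Foxp3 with the targets below. Of these markers, 11 rose with the deposited values (78.6%, against 25.6% of all rows) and 7 once scaled to the trimmed mean (against 4.68%). Itgae and Lrrc32, which are in both counts, entered the test only through the libraries labelled KO. Of the other 12 tested, 9 rose as deposited (75.0%, against 25.6% of all rows). Il10, 1 of these 9, was at 0.886 FPKM in WT 1 and also needed a library labelled KO to pass the filter. Il2ra went the other way and was not called, at 35.6 and 29.4 FPKM against 27.6 and 27.2 FPKM. The 14 markers summed to 143 and 230 FPKM in wild-type libraries, compared with 482 and 488 FPKM in those labelled KO. The part of regulatory T cells in the values of Tgfb1 and Smad3 was not tested. Of 15 markers of effector and memory T cells, 12 rose as deposited (80%, against 25.6% of all rows) and 10 when scaled to the trimmed mean (against 4.68%). Their sum was 909 and 1055 FPKM against 2381 and 1745 FPKM. Lgals3, which is in both counts, entered the test only through the libraries labelled KO. Of the other 14 tested, 11 rose as deposited (78.6%). Crip1 (log2 change -0.23), Anxa1 (0.04) and S100a10 (0.68) were not called as deposited. Among the 15 markers Cd44, an adhesion receptor of activated and memory cells, rose 3.08-fold (limma adjusted p = 0.0131). Of 12 naive T cell markers 3 rose as deposited (25%, against 25.6% of all rows), 1 fell and 8 were not called. Those that rose were Ets1 (1.93-fold), Tcf7 (1.81-fold) and Il7r (1.67-fold). The 1 that fell was Dapl1, at 50.3 and 57.3 FPKM against 8.85 and 18.9 FPKM (limma adjusted p = 0.0151). The part of these lists in the values of the 10 genes was not tested either.

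Of 6 other receptors tested, 1 rose as deposited (16.7%, against 25.6% of all rows): Acvr2a, an activin receptor, at 0.621 and 0.692 FPKM against 2.36 and 1.88 FPKM (limma adjusted p = 0.0216), which also entered the test only through the libraries labelled KO. It did not pass after trimmed-mean scaling (limma adjusted p = 0.0710). Tgfbr3 (betaglycan), the co-receptor, was at 3.79 and 4.86 FPKM against 4.35 and 5.41 FPKM, with overlapping groups. Of 3 tested SMADs of the other branches 0 passed (limma; 1, Smad5, at an unadjusted p under 0.05). Smad5 was at 1.92 and 2.30 FPKM against 3.80 and 3.54 FPKM (limma adjusted p = 0.0505), and Smad1 at 2.34 and 3.75 FPKM against 3.15 and 2.96 FPKM.

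Regulators of receptor and SMAD turnover and traffic rose in 9 of 24 tested (37.5%, against 25.6% of all rows) as deposited and in 0 after trimmed-mean scaling (limma; 6 at an unadjusted p under 0.05). Pmepa1, a target that in turn limits SMAD activation, was at 0.968 and 1.45 FPKM against 3.79 and 2.90 FPKM (limma adjusted p = 0.0218), and Ldlrad4, a relative of it listed under the older symbol D18Ertd653e, rose 2.77-fold (limma adjusted p = 0.0153). Pmepa1 and Zfyve16, both called higher, each had 1 wild-type library under 1 FPKM and passed the filter only with libraries labelled KO. Cul1, a scaffold of ubiquitin ligases, rose 1.99-fold and Tgfbrap1, a receptor-associated protein, 2.33-fold (limma adjusted p = 0.0182 and 0.0215). Fkbp1a, which binds the type I receptor, and Skp1a, a ubiquitin ligase subunit, gave log2 changes of 0.37 and -0.02. Nuclear partners of the SMADs rose in 9 of 21 tested (42.9%, against 25.6%) as deposited, in 1 after trimmed-mean scaling (against 4.68%) and in 0 after quantile normalization (limma; 5 at an unadjusted p under 0.05). The coactivators Ep300 and Crebbp rose 2.26-fold and 2.56-fold as deposited (limma adjusted p = 0.0151 and 0.0171) and did not pass after trimmed-mean scaling (limma adjusted p = 0.0551 and 0.0624). Tgif2, the relative of Tgif1, was also high in both libraries numbered 2, with 3.01 and 6.94 FPKM in WT 1 and WT 2 and 3.02 and 8.18 FPKM in KO 1 and KO 2.

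Of 17 tested genes known as TGF-beta targets in T cells or other cells, 7 rose (41.2%, against 25.6% of all rows) and 0 fell as deposited, and 4 rose after trimmed-mean scaling (against 4.68%; limma). Itgae and Gzmb were under 1 FPKM in both wild-type libraries and entered the test only through the libraries labelled KO. Of the other 15 tested, 5 rose (33.3%). Ccr8, 1 of these 5, was at 0.147 and 1.28 FPKM in wild-type libraries, so it too passed the filter only with libraries labelled KO. The 4 that rose after trimmed-mean scaling were Itgae, Ccr8, Foxp3 and Eomes. As Itgae and Ccr8 are among them, that count cannot be set cleanly against 4.68% of rows. Itgae, the CD103 integrin chain that TGF-beta induces, rose 14.6-fold and Foxp3, the factor of regulatory T cells that it also induces, 5.60-fold (both limma adjusted p = 0.00780). Eomes, which TGF-beta is known to hold down, rose as well, from 3.05 and 2.92 FPKM to 8.47 and 10.7 FPKM (limma adjusted p = 0.0127). The list thus mixes genes that TGF-beta induces with genes that it holds down, so its counts give no direction for the pathway. Id1 and Id3, targets of the BMP branch, gave log2 changes of -0.34 and 0.08 and did not pass (limma adjusted p = 0.248 and 0.851). Of 15 tested genes of the arms that do not run through SMADs, such as that of the kinase TAK1 and the MAP kinases, 7 rose as deposited (46.7%, against 25.6%) and 0 after trimmed-mean scaling (limma; 2 at an unadjusted p under 0.05). They included Tab1 and Tab2, partners of TAK1, at 2.36-fold and 1.95-fold (limma adjusted p = 0.0216 and 0.0218), and Shc1, an adaptor, at 1.82-fold (0.0232). Without WT 1 almost no row of any kind was called, so that fit does not tell these pathway lists from the rest.

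**Figure D4:**
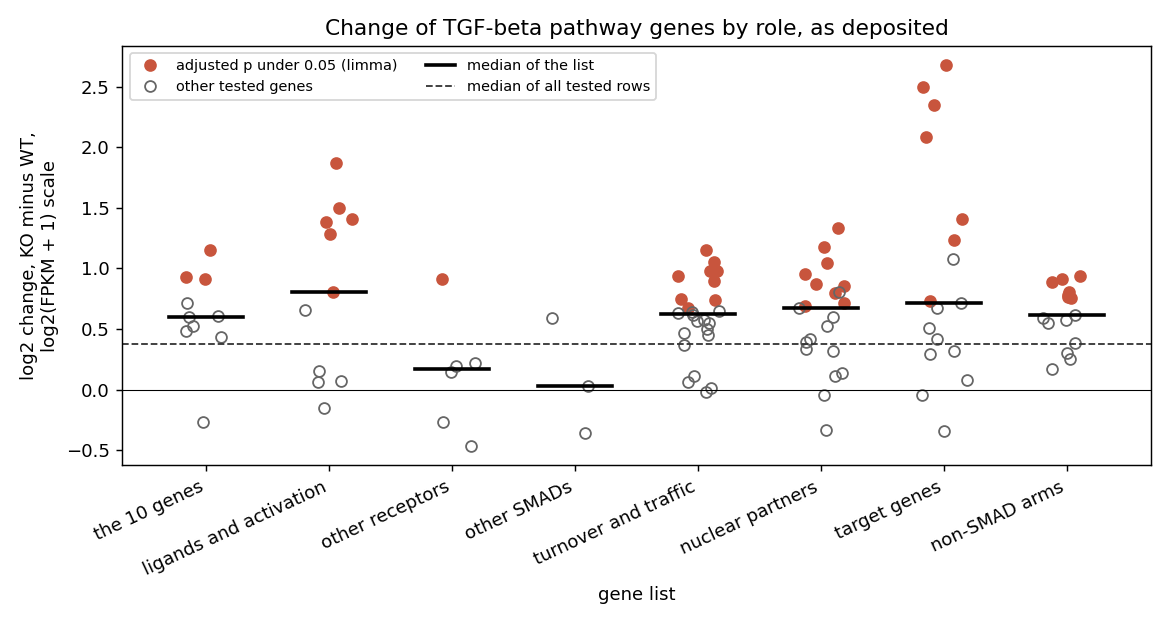
Log2 change (KO minus WT, log2(FPKM + 1) scale, as deposited) of each tested gene by its role in the pathway; filled points passed at an adjusted p under 0.05 (limma), open ones did not, bars are list medians and the dashed line is the median of all tested rows. The list medians run from 0.03 for the other SMADs to 0.81 for ligands and activation, with 0.60 for the 10 genes.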

How the data were processed

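The members and gene lists were chosen with earlier results of these data known. The authors deposited 1 FPKM table per library, per the file headers; Bowtie 0.12.2 and the build mm8 are named in the submitters' processing notes, while quantifier and annotation are not given in the sources. The input was total RNA (200 ng), per the labels' protocols. Rows with at least 1 FPKM in at least 2 libraries (11074 of 23700) were tested as log2(FPKM + 1) with limma 3.58.1 (R 4.3.3, intensity trend, two-sided, Benjamini-Hochberg over all rows, threshold 0.05). A trial on simulated data used independent noise and no shift common to a whole library. It is therefore no check on such shifts or on differences by library number. FPKM are scaled to each library's total, so a few abundant genes can shift all others. The trimmed mean of M values was an own implementation (30% and 5% trimmed at each side; factors 0.791, 0.905, 1.21 and 1.16 in WT 1, WT 2, KO 1 and KO 2). Depth was estimated from genes with 1 transcript in GENCODE vM21, assuming fragments of 200 nt; 55.2% to 61.9% of the lowest values lay within 0.05 of a whole fragment, so no count test was run. Fragments per gene used its longest transcript there, so they are approximate. The named genes were the 10 genes and Ripk1, up to 4 called genes by p and the 2 highest of each pathway list, the 3 highest of each marker list, and the 4 nearest rows in pattern (small RNA genes left out) of the 3 genes with the largest change; other names were chosen after their values were seen. Alternatives were each library left out, a replicate block, pseudocounts of 0.1 and 5, no filter, a mean of at least 5 FPKM, trimmed-mean, quantile and median scaling, and no trend. Some genes of the lists are not reported here by name.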

Additional observations from a re-analysis of the deposited data

How the results depend on the processing

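The call of 3 of the 10 genes as higher became 0 after trimmed-mean, quantile and median scaling and with no filter on low values. None of the 10 was lower under any setting. On leaving out 1 library the genes called did not stay the same. Without WT 1 the calls of Smad3, Ski and Tgfb1 were lost, and without KO 2 that of Ski (log2 change 0.86). Without KO 1, Tgfb1 lost its call (0.78) and Tgif1 gained one (1.72), with KO 2 as the only library labelled KO. Where a library is left out, the lone library of its group is assumed to vary like the other group. Over all rows, 2832 were higher and 111 lower as deposited, against 518 and 576 when scaled to the trimmed mean, 179 and 77 with quantile normalization, 496 and 800 after median scaling, 3 and 0 with no filter, and 1562 and 89 with a mean of at least 5 FPKM. Leaving out 1 library gave 9 (without WT 1) to 2189 higher and 0 to 123 lower; without KO 1 there were 1611 and 70. With the replicate number as a block, 5 of the 10 genes were higher (Tgfbr1 and Tgif1 joined, at limma adjusted p = 0.0184 and 0.0208), with 3909 rows higher and 230 lower. The labels do not say that a number marks a shared mouse or day; across rows the library 2 minus library 1 differences of the genotypes had a Pearson r of 0.11. Signs turned for Smad2 with quantile normalization (-0.035), Smad4 with median scaling (-0.012), Smad7 without WT 2 (0.27) and without KO 1 (0.35), and Tgif1 without WT 1 (-0.12) and without KO 2 (-0.29). Leaving out 1 library in turn gave log2 changes of -0.89 to 0.35 for Smad7 and -0.29 to 1.72 for Tgif1. The cause was not tested. Of 128 recomputed log2 changes of the 10 genes, 102 kept their direction and side of the threshold. A gene not called as deposited kept its side by staying uncalled, so this count says little about the calls. In 17 of the 128 a call was lost, all of them of Smad3, Ski or Tgfb1.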
